A study of Drosophila ananassae and Drosophila erecta and Drosophila sechellia with 40 samples.

Results

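The change in transcript level from the pupal to the adult antenna of Drosophila sechellia was set against the same change in Drosophila simulans. Genes entered the comparison where the authors' mean normalized count was above 50 in both species at one stage or more and above 0 in all 4 groups, which gave 7521 genes of the 24135 gene names listed at both stages. For each gene, log2 of the adult over the pupal level in D. simulans was subtracted from the same log2 ratio in D. sechellia, and the median over genes, -0.05, was set to 0. A positive difference of change therefore means that the gene gained more, or lost less, in D. sechellia than in D. simulans. A gene model that is longer or shorter in one species by a constant factor cancels in this difference, which a comparison of levels within a stage does not allow.

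Both species are labelled as wild-type, with 1 stock each named in the methods, and were reared on the same cornmeal medium at the same temperature. The p40 groups held antennae 40 hours after puparium formation from pools of 70 individuals, and the AA groups held adult antennae of both sexes from pools of 300. Each of the 4 groups had 2 libraries, so that 8 of the 40 libraries of the series were compared, and D. erecta was used as a further species for reference. The age of the pupae is labelled in the same way for both species, and the paper states that stages were matched between species. For the incubation of staged pupae, however, the methods name hours and temperature for D. sechellia and not for D. simulans.

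In the middle of pupal life the olfactory neurons of the antenna have been born, extend their axons to the brain and begin to transcribe the receptor each has selected, while the surrounding epidermis secretes the adult cuticle. In the adult antenna the neurons express receptors, ion channels and synaptic proteins at their final levels, and the support cells of each sensillum secrete odorant-binding proteins and odorant-degrading enzymes into the lymph. D. sechellia is a specialist on the fruit of Morinda citrifolia, and D. simulans is its close generalist relative. The roles of genes given here are known from D. melanogaster.

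The tables give means of 2 libraries, from which single library counts were worked out. Summed over all listed gene names, the p40 libraries gave 19519286 and 14638094 reads in D. sechellia and 23729891 and 12831491 in D. simulans. In AA the highest means could not be resolved into 2 libraries. The resolved names alone gave 18794492 and 14048689 reads in D. sechellia and 18744063 and 13249437 in D. simulans. Names that share an entry repeat the same reads, so these sums are a rough guide to depth and not library totals. Between 92.4% and 93.8% of the single gene counts in D. sechellia and between 78.3% and 80.1% in D. simulans were even numbers, so 2 reads can be the mates of 1 fragment. Within each group the library with the larger size factor is called A and the other B, and values are given in this order. The 2 libraries of a group differed by a median of 0.15 at p40 and 0.11 in AA of D. sechellia, and by 0.19 and 0.15 in D. simulans, on the log2 scale over 7338 genes. Of the 7521 genes, 7338 were resolved in all 8 libraries and tested, and 183 could be described by the authors' means only.

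Some single libraries stood apart in markers of other tissues. The summed level of 6 photoreceptor genes was 22818 in library B of D. sechellia AA, 339 in its library A and between 104 and 816 in the other 6 libraries. The summed level of 6 fat body genes was 5827 and 11069 in D. sechellia AA, 921 and 3622 in D. simulans AA and between 3238 and 5887 at p40. In AA these genes went opposite ways by the means. Yp1 (2686 against 571), Yp2 (2765 against 567) and Yp3 (2947 against 0) were higher in D. sechellia. Lsp2 (42.5 against 456), Lsp1beta (4.08 against 199) and Fbp1 (4.27 against 479) were higher in D. simulans. The olfactory neuron markers Orco, elav, Ir25a and Syt1 were above 0 in every group, but Ir8a, the co-receptor of acid-sensing receptors, was listed at 0 in both D. simulans groups, as were iav, moody, loco, Rh3 and Yp3, so these genes could not enter the comparison. Est-6 was listed at 0 in all 4 groups under its own name and appeared only in a joint entry with Est-P. In D. simulans, 7 genes, among them Act42A (shared with Act5C), fok, rec and Nipped-A, differed by more than 3 on the log2 scale between the 2 libraries at both stages, a difference that the labels, which describe both libraries alike, do not account for. In these bulk samples, fewer cells of a type and less RNA per cell cannot be told apart.

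Of the 7338 genes tested with limma on log2(normalized count + 1), 970 (13.2%) had a higher change in D. sechellia and 949 (12.9%) a lower one at a Benjamini-Hochberg adjusted p under 0.05. Together these were 26.2% of the tested genes, and 442 (6.02%) higher and 477 (6.5%) lower genes also differed by at least 1 on the log2 scale. Counts in the gene lists below are to be set against these shares of 13.2% higher and 12.9% lower. The median difference of change was 0.95 among the higher and -1.01 among the lower genes. Within D. sechellia, 73.6% of the genes changed from p40 to AA, of which 2682 (36.5%) rose and 2720 (37.1%) fell. Within D. simulans 72.2% changed, with 2629 (35.8%) that rose and 2668 (36.4%) that fell. Leaving out library B of D. sechellia AA gave 531 higher and 513 lower genes, leaving out its library A 551 and 535, and without library A of D. sechellia p40 598 were lower. A total of 434 higher and 417 lower genes stayed called without each library in turn, and the genes described with all 8 values below are among these unless stated otherwise.

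**Figure D1:**
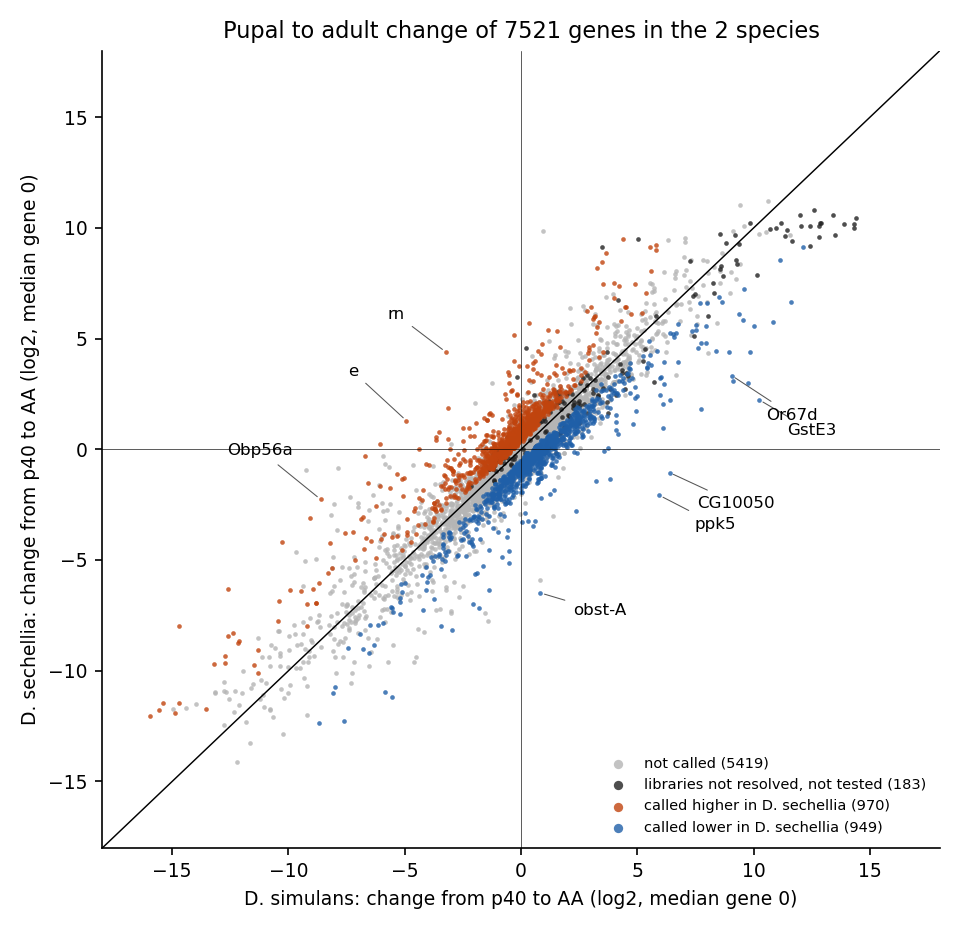
Change from p40 to AA of 7521 genes in D. simulans (horizontal axis) and D. sechellia (vertical axis), both as log2 of the authors' means with the median gene at 0. Most genes lie along the diagonal of equal change, the 970 genes called higher in D. sechellia lie above it, and the 949 called lower lie below it.

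Among the 970 higher genes, 246 (25.4%) rose in both species and 245 (25.3%) fell in both, against 28.5% and 29.8% of all tested genes, and 86 rose in D. sechellia and fell in D. simulans. Among the 949 lower genes, 297 (31.3%) rose in both, 247 (26.0%) fell in both, and 78 fell in D. sechellia and rose in D. simulans. The median level ratio of D. sechellia to D. simulans among the higher genes went from -0.55 at p40 to 0.29 in AA on the log2 scale, and among the lower genes from 0.49 to -0.59.

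Which of the 2 species stood farther from another species in its change depended on that other species. Over the 1854 called genes with a value in D. erecta, the change in D. sechellia was farther than that in D. simulans from the change in D. erecta for 877 (47.3%), against 3567 of 7119 (50.1%) among all tested genes with a value. Against D. ananassae the share was 70.4% of called genes and 61.0% of tested genes, and against D. virilis 63.8% and 58.5%. These shares are descriptions without a test. The differences are therefore named by the comparison that gave them and not as changes particular to D. sechellia.

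More odorant receptors had a lower than a higher change in D. sechellia, although most were not called. Of 27 members, 26 were tested, 9 (34.6%) had a lower and 2 (7.69%) a higher change, against 12.9% and 13.2% of all tested genes, and 15 were not called. By the means 17 lay below and 10 above 0, and the median difference of change was -0.89, against 0 over all genes. The median level ratio of the receptors was 0.92 on the log2 scale at p40 and 0.14 in AA. Among the lower receptors, the D. simulans p40 levels of Or22a, Or67d, Or49b and Or83c rest on few reads, as given below. The number of lower receptors ranged from 6, without either library of D. sechellia AA or of D. simulans AA, to 12 without library B of D. simulans p40.

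Or22a, a receptor for fruit esters whose entry in the tables is shared with its neighbour Or22b, had 20.9 and 27.8 normalized counts at p40 and 4297 and 4440.2 in AA of D. sechellia. In D. simulans it had 2.67 and 2.72 at p40 and 2499 and 2341 in AA. Both D. sechellia libraries were above both D. simulans libraries at each stage, and the gap was wider at p40. The change was lower in D. sechellia by -1.87 (SE 0.24, limma adjusted p = 0.00349) on the log2 scale. The D. simulans p40 level rests on 4 and 2 reads. The SE comes from the spread between libraries and can be smaller than the counting error at so few reads. No counting interval was computed for Or22a.

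Or42b, an ester receptor of the large basiconic sensilla, had 269 and 309 at p40 and 4527 and 4901 in AA of D. sechellia, against 48.0 and 50.3 and then 2843 and 2670.1 in D. simulans. Again D. sechellia was the higher species at both stages without overlap, and the difference of change was -1.70 (SE 0.15, adjusted p = 0.00145). Or67d, the receptor of the male pheromone cis-vaccenyl acetate, was already at 99.4 and 123 in the p40 libraries of D. sechellia but at 2.00 and 0 in those of D. simulans. In AA it reached 1240.2 and 1394 in D. sechellia against 551 and 706 in D. simulans, and the fitted difference was -4.88 (SE 0.68, adjusted p = 0.00479). The D. simulans p40 value rests on 3 reads. Counted as 2 fragments, they gave the difference of the means (-5.68) a 95% counting interval from -8.30 to -3.40, which covers counting error only. Or49b, a receptor for aromatic compounds, had a like pattern, with 89 and 114 against 1.33 and 2.72 at p40 and 588 and 511 against 177 and 223 in AA. Its difference was -3.60 (SE 0.43, adjusted p = 0.00312), and its D. simulans p40 level rests on 2 and 2 reads. No counting interval was computed for Or49b, and its SE has the limit named for Or22a.

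Other receptors with a lower change were Or83c, Or67a, Or13a, Or59b and Or67c, with differences between the authors' means of -3.65, -2.87, -2.78, -1.95 and -1.5. The call of Or83c, a farnesol receptor, rested on 2 reads in D. simulans p40, with an interval of -8.53 to -0.75 if these were 1 fragment, and was lost without library A of D. sechellia p40 (adjusted p = 0.0632) or without any AA library (adjusted p between 0.0722 and 0.0908).

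Or43b went the other way. It had 365 and 299 at p40 and 3718 and 3826 in AA of D. sechellia, and 925 and 1159 at p40 and 2766 and 2928 in AA of D. simulans. D. sechellia was the lower species in the pupa and the higher one in the adult, and the difference of change was 2.10 (SE 0.20, adjusted p = 0.00155). Or7a also had a higher change (1.80, SE 0.35, adjusted p = 0.0131), with 5.23 and 4.64 against 18.7 and 16.3 at p40 and overlapping levels in AA, but this call was lost without library A (adjusted p = 0.0691) or B (0.0549) of D. sechellia AA or library B of D. simulans AA (0.0559).

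Or47b and Or92a were not called. Or47b, which detects fly odours that promote courtship, rose from 92.4 and 97.5 to 1533 and 1844 in D. sechellia and from 117 and 76.1 to 1383 and 1518 in D. simulans, and its difference was 0.26 (SE 0.30, adjusted p = 0.55). Or92a, the diacetyl receptor, rose from 3.49 and 0 to 4896 and 4728 and from 1.33 and 2.72 to 3903 and 3652, with a difference of 0.88 and an SE of 0.91 (adjusted p = 0.51). Its pupal levels rest on 4 reads in each species, and it was called in 1 of the 8 fits that left out a library, that without library A of D. sechellia p40 (1.96, adjusted p = 0.0296). Or85b was outside the comparison because its D. sechellia level never passed 50: it had 34.5 and 43.1 in AA of D. sechellia, against 936 and 957 in AA of D. simulans. Orco, the co-receptor of the odorant receptors, had AA libraries that were not resolved, and its authors' means rose from 163 to 44969 in D. sechellia and from 37.7 to 50676 in D. simulans, a difference of -2.24 without a test.

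**Figure D2:**
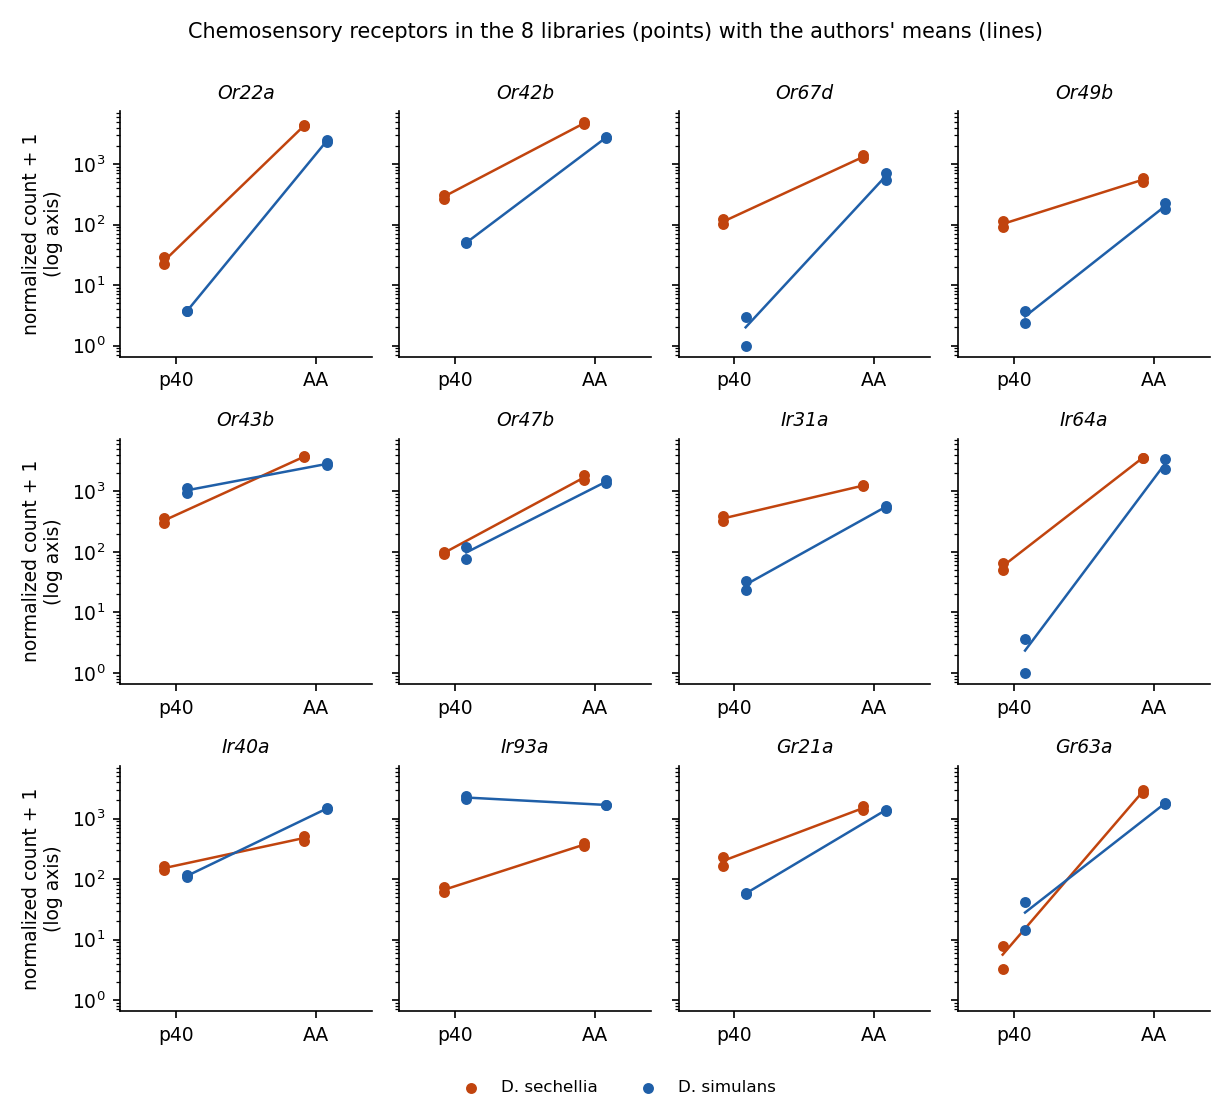
Levels of 12 chemosensory receptors at p40 and in AA, as normalized count plus 1 on a log axis, with points for the 2 libraries of each group and lines joining the authors' means. For Or22a, Or42b, Or67d, Or49b, Ir31a, Ir64a and Gr21a the 2 species lie farther apart at p40 than in AA, with D. sechellia above, and for Or43b, Ir93a and Gr63a D. sechellia lies below at p40.

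Ionotropic receptors detect acids, amines, humidity and temperature. Of 14 members, 8 (57.1%) had a lower and 1 (7.14%) a higher change, against 12.9% and 13.2% of all tested genes. The median difference of these receptors was -1.01. Their median level ratio fell from 1.2 at p40 to 0.09 in AA, close to the course of the odorant receptors. The number of lower members was between 5, without library B of D. sechellia AA, and 8.

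Ir64a, an acid sensor of the sacculus, was at 48.8 and 65.0 in D. sechellia p40 and at 2.67 and 0 in D. simulans p40. In AA the levels were 3540.3 and 3626 in D. sechellia against 2339 and 3379 in D. simulans, so that D. sechellia was the higher species at both stages, by a wider gap at p40. Its difference of change was -4.50 (SE 0.79, adjusted p = 0.00972), and its D. simulans p40 level rests on 4 and 0 reads. No counting interval was computed for Ir64a, and its SE has the limit named for Or22a. Ir31a, a receptor of the coeloconic sensilla, had 319 and 394 at p40 and 1251 and 1244 in AA of D. sechellia, and 22.7 and 32.6 and then 535 and 572 in D. simulans, without overlap at either stage. Its difference was -2.43 (SE 0.27, adjusted p = 0.00266).

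For Ir40a, which is needed for sensing dry air, D. sechellia was slightly above D. simulans in the pupa and below it in the adult. It had 162 and 142 at p40 and 526 and 434 in AA of D. sechellia against 115 and 109 at p40 and 1483 and 1459 in AA of D. simulans, and a difference of -2.0 (SE 0.19, adjusted p = 0.00159). Ir93a, a co-receptor of the same humidity and temperature neurons, moved in opposite directions: it rose from 59.3 and 71.9 to 395 and 346 in D. sechellia (change 2.27, adjusted p = 9.03e-06) and fell from 2103 and 2374 to 1700.1 and 1675 in D. simulans (change -0.63, adjusted p = 0.004). Its level in D. sechellia stayed below that of D. simulans in all libraries of both stages, and the difference of change was 2.94 (SE 0.18, adjusted p = 0.000496). Ir92a, Ir75a, Ir75b, the broad co-receptor Ir25a and Ir75d were the other members with a lower change, by -1.51, -1.38, -1.05, -0.98 and -0.48 between the means, while Ir84a (-0.03), Ir60a, Ir41a, Ir76a and Ir21a were not called.

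Of 9 gustatory receptors, 3 (33.3%) had a lower and 1 (11.1%) a higher change, against 12.9% and 13.2% of all tested genes. Their median was -1.37, and the level ratio fell from 1.34 to 0.10. Gr21a and Gr63a together form the carbon dioxide receptor of the antenna, and they differed in opposite ways. Gr21a had 234 and 167 at p40 of D. sechellia against 56.7 and 57.1 in D. simulans and overlapping levels in AA (1598 and 1403 against 1354 and 1416), with a difference of -1.62 (SE 0.24, adjusted p = 0.00547). Gr63a had 6.98 and 2.32 at p40 of D. sechellia against 13.3 and 40.8 in D. simulans and 2931 and 2642 against 1733 and 1850.0 in AA, a difference of 2.94 (SE 0.80, adjusted p = 0.0382). The call of Gr63a held in 2 of the 8 fits that left out a library, those without library A of either p40 group, and its adjusted p was between 0.0521 and 0.108 in the other 6. Gr10a (-0.91), lost without library A of D. sechellia AA (adjusted p = 0.0523), and the sugar receptor Gr64c (-1.38) were the other lower members. Gr64c was lost in 5 of the 8 fits, with adjusted p between 0.055 and 0.0925, and only its calls without library A of either p40 group and without library A of D. sechellia AA remained.

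Odorant-binding proteins and other products of the support cells reached the highest levels of the adult antenna, and most were not resolved. Of 20 odorant-binding proteins, 10 were tested, and 2 (20%) had a lower and 1 (10%) a higher change. The shares of all tested genes were 12.9% and 13.2%. The median over all 20 was -1.0, against 0.31 over the 10 tested. Of 10 other support-cell genes, 2 were tested, Atet and Ugt35a, and both had a lower change, but the call of Ugt35a was lost without either library of D. sechellia AA or library B of D. simulans AA (adjusted p between 0.0522 and 0.0653). The median over all 10 was -1.83, with a level ratio of 2.32 at p40 and 0.27 in AA. The list medians of both groups thus rest largely on untested means.

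Among the untested genes, the binding protein Obp83a rose from 132 to 176263 in D. sechellia and from 6.39 to 155636 in D. simulans, a difference of -4.14 between the means. The antennal protein a10 had means of 163 and 197552 in D. sechellia against 5.38 and 128148 in D. simulans (-4.25). Jhedup, an esterase of the antenna, had 116 and 205880.0 against 5.38 and 70042 (-2.82), and Obp19d had 328 and 454816 against 47.7 and 415665 (-2.6). In all 4 the pupal mean was several-fold higher in D. sechellia than in D. simulans. Msr-110, also among the most abundant unresolved genes, had means of 59342 at p40 and 114473 in AA of D. sechellia, and 35368 and 128403 in D. simulans (-0.86).

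Obp56a stood out among the tested binding proteins. It fell from 4949 and 4122 at p40 to 1059 and 1169 in AA of D. sechellia and from 44886 and 33374 to 53.6 and 182 in D. simulans. D. simulans was the higher species in the pupa and the lower one in the adult, without overlap, and the difference of change was 6.63 (SE 0.71, adjusted p = 0.0025). In D. erecta the change of its mean was -7.96, closer to the -8.62 of D. simulans than to the -2.26 of D. sechellia. Obp73a had 611 and 1158 at p40 and 127 and 90.6 in AA of D. sechellia, against 253 and 462 and 476 and 559 in D. simulans, and a difference of -3.50 (SE 0.55, adjusted p = 0.00673). Atet, an ABC transporter, went from 2034 and 1923 to 3025 and 3043 in D. sechellia and from 1819.7 and 1963 to 5347 and 6283 in D. simulans, with a difference of -0.95 (SE 0.14, adjusted p = 0.0054). At p40 its libraries overlapped between the species, and in AA those of D. simulans were higher.

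Genes of synapses and neuronal excitability more often had a lower than a higher change. Of 24 members, 21 were tested. A lower change was found for 12 (57.1%) and a higher one for 1 (4.76%), against 12.9% and 13.2% of all tested genes. By the means 23 of the 24 lay below 0, with a median of -1.13. The level ratio went from 1.30 at p40 to 0.08 in AA. The number of lower members was between 10 and 13 when 1 library was left out.

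Complexin, cpx, which clamps synaptic vesicle fusion, had 1617 and 1297 at p40 and 2519 and 2736 in AA of D. sechellia, and 339 and 481 at p40 and 2884 and 3210.1 in AA of D. simulans. D. sechellia was far above at p40 and slightly below in AA, and the difference was -2.0 (SE 0.26, adjusted p = 0.00389). The potassium channel gene eag did not pass the test of a rise in D. sechellia (633 and 489.6, then 815 and 699.9) and rose in D. simulans (62.0 and 53.0, then 337 and 283), a difference of -1.92 (SE 0.25, adjusted p = 0.004). Rim, a scaffold of the active zone, had 3171 and 2919 and then 2555 and 2082 in D. sechellia and 223 and 306 and then 609.9 and 941 in D. simulans, a difference of -1.88 (SE 0.34, adjusted p = 0.0104). Its level was higher in every D. sechellia library than in any D. simulans library. The calcium sensor Syt1, the calcium-activated potassium channel gene slo, the chloride channel gene Rdl and the vesicle protein nSyb had differences of -1.88, -1.61, -1.62 and -1.27 between the means. The single higher member was futsch, which encodes a microtubule-associated protein (0.81, adjusted p = 0.0248), and this call was lost in 5 of the 8 fits, those without library B of D. sechellia p40, library A of D. sechellia AA, library B of D. simulans p40 or either library of D. simulans AA (adjusted p between 0.0512 and 0.0863).

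**Figure D3:**
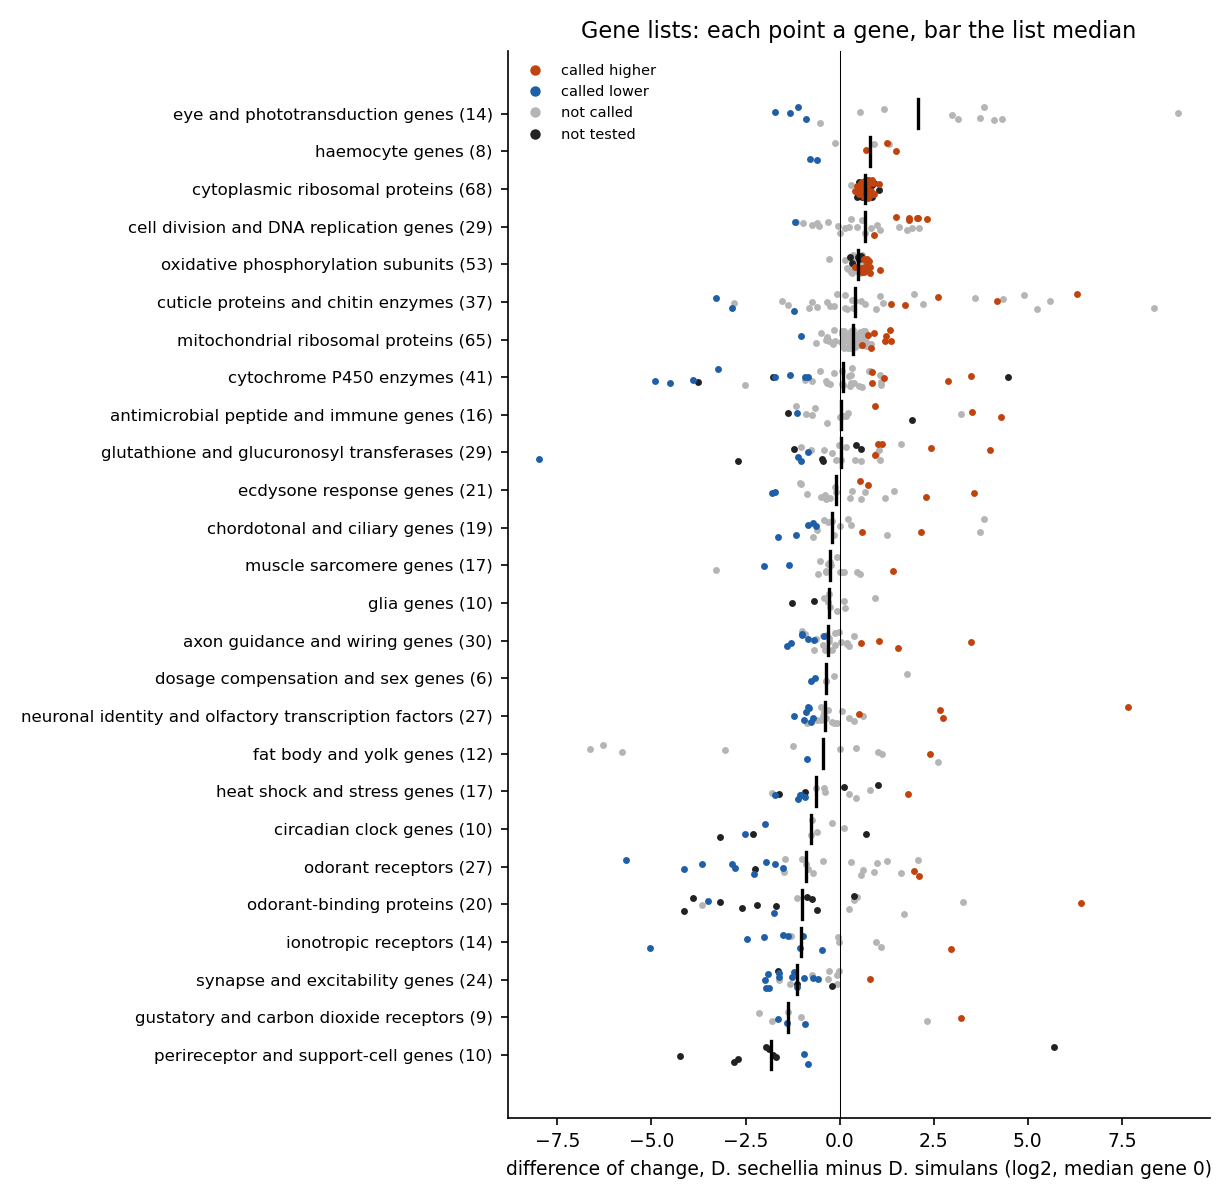
Difference of change, D. sechellia minus D. simulans, of each gene in 26 lists (authors' means, log2, median gene at 0), with the number of members in brackets and a bar at the list median. The receptor and synapse lists have medians between -0.89 and -1.37, cytoplasmic ribosomal proteins lie between 0.29 and 1.05 with no member below 0, and eye, cuticle and fat body lists spread over many units.

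Transcription factors of neuronal and sensillar identity moved less as a group. Of 27 members, 7 (25.9%) had a lower and 4 (14.8%) a higher change, against 12.9% and 13.2% of all tested genes. The median was -0.38. Without library A of D. sechellia p40 or library B of D. sechellia AA, 3 members were lower, and without either library of D. sechellia p40, library B of D. sechellia AA or library A of D. simulans p40, 2 were higher. Rotund, rn, a zinc-finger protein that diversifies sensillum types in the antennal disc, had the highest difference of any called gene. It rose from 112 and 83.5 at p40 to 2442 and 2390.2 in AA of D. sechellia and fell from 127 and 318 to 28.1 and 27.8 in D. simulans, lower in D. sechellia than in D. simulans at p40 and far higher in AA, with a difference of 7.49 (SE 0.56, adjusted p = 0.00104). The change in D. erecta was -1.96, of the sign seen in D. simulans.

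The nuclear protein gene danr, which acts in antennal specification, fell from 1383 and 1176 to 38.9 and 23.8 in D. sechellia and from 898 and 747 to 2.55 and 3.71 in D. simulans, a difference of 2.36 (SE 0.41, adjusted p = 0.00928). Its paralog dan had a difference of 2.36 (adjusted p = 0.02) that was lost without library A or B of D. sechellia p40, library B of D. sechellia AA or library A of D. simulans p40 (adjusted p between 0.0599 and 0.0678). bab2, a regulator of proximal to distal patterning, moved in opposite directions: it fell from 1355 and 1239 to 1173 and 1143 in D. sechellia and rose from 2327 and 2477 to 4249 and 4333 in D. simulans (-0.95, SE 0.11, adjusted p = 0.00297). Fer1, a bHLH factor, fell in D. sechellia (2437 and 2121, then 1305 and 1224) and had 1478 and 1489, then 1516 and 1664, in D. simulans (-0.89, SE 0.14, adjusted p = 0.00618). The POU factor acj6, which selects receptors and axon targets, had 363 and 304 at p40 of D. sechellia against 97.4 and 101 in D. simulans (-1.19, adjusted p = 0.0162), a call lost without library A of D. sechellia p40 (0.0549) or library B of D. sechellia AA (0.0634). The neuronal RNA-binding protein elav had a difference of -0.81 (limma adjusted p = 0.0187), a call lost without the same libraries. It had 1027 and 937 at p40 and 652 and 565 in AA of D. sechellia. In D. simulans it was higher at both stages, with 3080 and 3189 at p40 and 3182 and 3885 in AA. By the means, the neuron markers Orco, Ir25a and Syt1 were instead higher in D. sechellia at p40.

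Among 30 genes of axon guidance and wiring, 7 (23.3%) had a lower and 4 (13.3%) a higher change. The shares of all tested genes were 12.9% and 13.2%, so the higher share was near that of all genes. The median was -0.31, and fewer members were lower without library B of D. sechellia AA. NetB, a netrin, rose from 781 and 684 to 1739.5 and 1600.4 in D. sechellia and fell from 2731 and 3267 to 601 and 649 in D. simulans. The order of the species was reversed between the stages without overlap at either, and the difference was 3.50 (SE 0.17, adjusted p = 0.000211). robo3, a receptor for Slit, rose from 1905 and 1592 to 5866 and 6063 in D. sechellia and had 1268 and 1247, then 1509 and 1522, in D. simulans (1.56, SE 0.14, adjusted p = 0.0015). robo2, its relative, fell in both species to nearly the same level, from 1659 and 1807 to 140.1 and 138 and from 3670.2 and 3473 to 142 and 145 (1.05, SE 0.12, adjusted p = 0.00297). The adhesion molecule Fas2 fell from 12139 and 9378 to 2065 and 2196 in D. sechellia and from 2248 and 2504 to 1454 and 1097 in D. simulans (-1.36, SE 0.24, adjusted p = 0.0101), and its libraries were higher in D. sechellia at p40 than in any other group. The kinase gene Pak (-1.26, adjusted p = 0.00892) and the adhesion gene hbs (-0.99, adjusted p = 0.00425) also had a lower change.

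Of 19 genes of chordotonal organs and cilia, 5 (26.3%) had a lower and 2 (10.5%) a higher change (median -0.22). The shares of all tested genes were 12.9% and 13.2%. The scheme of the study shows isolation of the third antennal segment, whereas the chordotonal organ lies in the second. Its marker nompC, a mechanotransduction channel, had 1209 and 1160.1 at p40 and 4935 and 4797 in AA of D. sechellia against 54.7 and 46.2 and 47.2 and 49.2 in D. simulans, a difference of 2.15 (SE 0.16, adjusted p = 0.00107). Its level ratio of 4.54 at p40 and 6.60 in AA was the highest among the markers of this organ with a level in both species. The channel gene nan had means of 292 against 133 at p40 and 169.8 against 87.9 in AA, btv had level ratios of 0.52 and -0.42 on the log2 scale, and tilB had means of 246 against 236 and 158 against 156. The summed means of the 5 markers, iav included, were 3623 in D. sechellia against 1410 in D. simulans at p40 and 10003 against 6040 in AA. In these sums iav was listed at 0 in D. simulans at both stages, and nompC had 4866 against 48.2 in AA. For btv the AA mean was higher in D. simulans, with 4464 in D. sechellia against 5748. The part of this organ in the list was not tested. nompA, which encodes an extracellular protein of the dendritic cap, fell from 13864 and 12843 to 117 and 146 in D. sechellia and from 12726 and 10922 to 342 and 410.1 in D. simulans (-1.64, SE 0.21, adjusted p = 0.00352). The dynein genes CG9313 (-1.16, adjusted p = 0.00535) and btv (-0.85, adjusted p = 0.011) also had a lower change, and CG9313 fell in D. sechellia and rose in D. simulans.

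Of 10 circadian clock genes, 7 were tested, and 2 (28.6%) had a lower and none a higher change (median -0.75). The shares of all tested genes were 12.9% and 13.2%. Clk, the master activator of the clock, rose from 95.1 and 129 to 678 and 647 in D. sechellia and from 34.7 and 19 to 827 and 1053 in D. simulans, with D. sechellia above at p40 and D. simulans above in AA. Its difference was -2.51 (SE 0.42, adjusted p = 0.0087). Pdp1 (-1.88, adjusted p = 0.024) was lost without any of the 4 AA libraries or without library B of D. simulans p40 (adjusted p between 0.0531 and 0.0737). The unresolved genes tim and to had differences of -2.31 and -3.17 between the means. Time of day of collection was not compared here.

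Ribosomal proteins of the cytoplasm had a higher change. All 68 cytoplasmic ribosomal proteins lay above 0, between 0.29 and 1.05 (median 0.68), and 29 of the 32 tested had a higher change, against 13.2% of all tested genes. Their median level ratio was -0.47 at p40 and 0.14 in AA. The number of called members was 14 without library B and 16 without library A of D. simulans AA, 15 without library A of D. sechellia p40 or library B of D. sechellia AA, and between 23 and 27 without any of the other 4 libraries. In D. simulans these genes lost more from p40 to AA, with a median change of -1.01 against -0.35 in D. sechellia and -0.82 in D. erecta.

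RpS16, a protein of the small subunit, had 6845 and 8279 at p40 and 7306 and 8892 in AA of D. sechellia, and 12265 and 12006 at p40 and 6563 and 6431 in AA of D. simulans. The D. simulans libraries were higher at p40 and lower in AA, and the difference was 1.05 (SE 0.18, adjusted p = 0.00928). RpS19a (0.89, SE 0.17, adjusted p = 0.0124) and RpL39 (0.88, SE 0.17, adjusted p = 0.012) were likewise higher in D. simulans at p40.

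Of 53 subunits of oxidative phosphorylation, 47 were tested. A higher change was found for 17 (36.2%) and a lower one for none, against 13.2% and 12.9% of all tested genes. By the means 52 of 53 lay above 0 (median 0.48). The count of higher members was 4 and 8 without library A and B of D. sechellia AA, 6 without library B of D. simulans AA, 7 without library A of D. sechellia p40 and 9 without library A of D. simulans p40, and it was 13, 15 and 23 without the remaining ones. ATPsynO, a stalk subunit of the ATP synthase, rose from 1322 and 1508 to 7355 and 6855 in D. sechellia and from 2323 and 2009.6 to 5771 and 4977 in D. simulans, starting lower and ending higher in D. sechellia (1.07, SE 0.17, adjusted p = 0.00694). ATPsynG (0.81, SE 0.15, adjusted p = 0.0104) started lower in D. sechellia as well.

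Of 65 mitochondrial ribosomal proteins, 8 (12.3%) had a higher change, close to the 13.2% of all tested genes, and 1 a lower one (median 0.36). Higher members numbered 3 and 4 without library B and A of D. sechellia AA, 4 without library B of D. simulans AA, 5 without library A of either p40 group and 17 without library B of D. simulans p40. mRpL12 rose from 368 and 329 to 1148 and 1019 in D. sechellia and had 599 and 524, then 783 and 657, in D. simulans (1.33, SE 0.19, adjusted p = 0.00482). mRpL47 (1.22, adjusted p = 0.00793) followed it, and mRpL43 was the lower member (-1.01, adjusted p = 0.011).

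Of 29 genes of cell division and DNA replication, 7 (24.1%) had a higher and 1 (3.45%) a lower change (median 0.67). The shares of all tested genes were 13.2% and 12.9%. Fewer members were higher without any 1 library, and fewest without either library of D. sechellia AA. The mitotic kinase gene polo was the member that stayed called without each library. It fell from 117 and 123 to 77.9 and 71.3 in D. sechellia and from 237 and 250.02 to 37.0 and 37.1 in D. simulans, higher in D. simulans at p40 and lower in AA (2.06, SE 0.25, adjusted p = 0.00318). The phosphatase gene stg, which starts mitosis, had a difference of 2.6 (adjusted p = 0.0226) that was lost without either library of D. sechellia AA or D. simulans p40 or library B of D. sechellia p40 (adjusted p between 0.0583 and 0.0656).

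**Figure D4:**
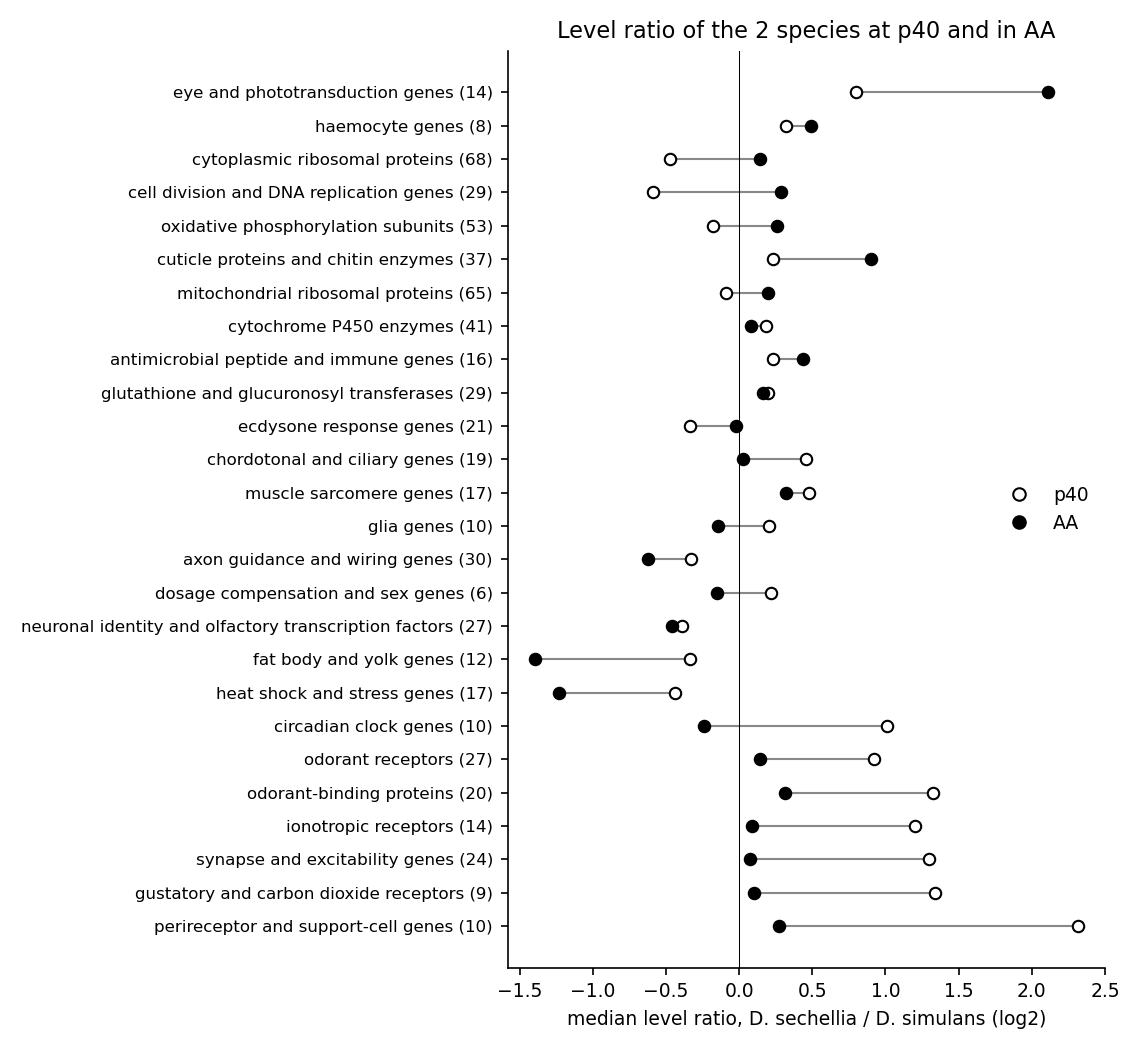
Median level ratio of D. sechellia to D. simulans in each of 26 gene lists at p40 (open points) and in AA (filled points), on the log2 scale with the median gene at 0 within each stage, lists ordered by their median difference of change. Receptor, synapse and support-cell lists have ratios between 0.92 and 2.32 at p40 and between 0.08 and 0.32 in AA, and cytoplasmic ribosomal proteins go from -0.47 to 0.14.

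Cuticle proteins and chitin enzymes, which fall steeply after the pupal stage, spread widely. Of 37 members, 5 (13.5%) had a higher and 3 (8.11%) a lower change, against 13.2% and 12.9% of all tested genes. The median was 0.41, with a range of -3.28 to 8.36. Fewer were higher without library B of D. sechellia AA in particular, and also without library A of D. sechellia p40 or library B of D. simulans AA. Cpr72Ea, a chitin-binding cuticle protein, fell from 122 and 106 to 3.34 and 0 in D. sechellia and from 19183 and 13726 to 2.55 and 3.71 in D. simulans. The species differed at p40 and were both near 0 in AA, and the difference was 6.22 (SE 0.92, adjusted p = 0.00547). The chitinase gene Cht6 had 9428 and 10093 at p40 and 6.67 and 4.46 in AA of D. sechellia, and 7822 and 15359.7 and then 57.4 and 42.7 in D. simulans (-2.75, SE 0.47, adjusted p = 0.00911). Cpr97Eb fell from 312 and 701 to 64.5 and 59.4 in D. sechellia and had 58.7 and 48.9, then 76.6 and 55.7, in D. simulans (-3.13, SE 0.55, adjusted p = 0.00967).

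Ebony, e, whose enzyme conjugates dopamine for the tanning of cuticle, rose from 33.1 and 48.7 to 89 and 147 in D. sechellia and fell from 2455 and 1465 to 57.4 and 94.6 in D. simulans. Its levels were far below those of D. simulans at p40 and overlapped with them in AA (6.2, SE 0.56, adjusted p = 0.00154). In D. erecta ebony had a change of 3.63, of the sign seen in D. sechellia. The chitin-binding protein obst-A went the other way, falling from 3783 and 6471 to 60.1 and 74.3 in D. sechellia and rising from 74.7 and 109 to 222 and 165 in D. simulans (-7.22, SE 0.44, adjusted p = 0.000472), with a change of -5.67 in D. erecta. Osi6, of the Osiris family of cuticle-associated proteins, fell from 14807 and 15994 to 11.1 and 4.46 in D. sechellia and from 2357 and 6802 to 128 and 106 in D. simulans (-5.74, SE 0.76, adjusted p = 0.00404).

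Of 21 genes of the ecdysone response, 4 (19%) had a higher and 2 (9.52%) a lower change (median -0.10), near the 13.2% and 12.9% of all tested genes. The number of higher members was 2 without library A of either p40 group or either library of D. sechellia AA, and the number of lower ones was 4 without library B of D. simulans p40. The Ets factor Eip74EF fell from 17940.2 and 14367 to 371 and 333 in D. sechellia and from 8522 and 12900.3 to 772 and 819 in D. simulans (-1.74, SE 0.29, adjusted p = 0.00821). The nuclear receptor gene Hr38 had 164 and 153, then 223 and 231, in D. sechellia and rose from 189 and 273 to 1127 and 1243 in D. simulans (-1.81, SE 0.25, adjusted p = 0.00479). ImpL1 fell from 16468 and 13589 to 35.6 and 31.2 and from 14202 and 19227 to 6.38 and 9.28, a higher change in D. sechellia (2.17, SE 0.31, adjusted p = 0.00479). At p40 the ImpL1 levels overlapped and those of Hr38 were lower in D. sechellia, and in AA both genes were separate between the species.

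Detoxifying enzymes differed gene by gene, without a shift of their lists. Of 41 cytochrome P450 genes, 38 were tested, and 8 (21.1%) had a lower and 5 (13.2%) a higher change (median 0.08). Of 29 glutathione and glucuronosyl transferases, 23 were tested, and 4 (17.4%) had a lower and 5 (21.7%) a higher change (median 0.03). The shares of all tested genes were 12.9% and 13.2%. Without library A of D. sechellia AA, 5 P450 genes were lower and 2 higher. Higher P450 genes numbered 2 or 3 without any library but A of D. simulans p40 and B of D. simulans AA, and higher transferases numbered 3 without either library of D. sechellia AA. GstE3 had 747 and 352 at p40 and 2944 and 3115 in AA of D. sechellia, against 4.00 and 5.44 and then 5988 and 7600.3 in D. simulans. D. sechellia was above at p40 and below in AA, and the difference of -7.61 (SE 0.48, adjusted p = 0.000496) was the second lowest of the called genes by limma. The D. simulans p40 level of GstE3 rests on 6 and 4 reads, so this rank is uncertain. Its change in D. erecta was 3.76, closer to the 2.23 of D. sechellia than to the 10.25 of D. simulans by the means.

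Cyp308a1 had 27.9 and 46.4 at p40 and 4796 and 4054 in AA of D. sechellia and 0 and 2.72, then 4808 and 5344, in D. simulans (-4.41, SE 0.81, adjusted p = 0.011). Its pupal D. simulans level rests on 2 reads, and if these were 1 fragment the counting interval of the difference of the means ran from -10.83 to -3.05. Cyp317a1 had 12.2 and 11.6 against 109 and 167 at p40 and close levels in AA (1088 and 1055 against 1169 and 1142), a higher change (3.34, SE 0.29, adjusted p = 0.00145). The entry shared by Cyp9b1 and Cyp9b2 had a difference of 2.83 (adjusted p = 0.00169) and that shared by Cyp6a21 and Cyp6a9 one of -4.20 (adjusted p = 0.0134), and reads of such near copies cannot be assigned to 1 gene. GstE1 (1.12, adjusted p = 0.00333) and Ugt58Fa (2.41, adjusted p = 0.00137) had a higher and GstD11 (-1.03, adjusted p = 0.00257) and GstZ2 (-1.10, adjusted p = 0.00559) a lower change.

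Several of the largest differences belonged to genes outside these lists. The 12 largest positive differences among called genes ranged from 5.25 to 7.68 and the 12 largest negative from -5.14 to -7.98 between the authors' means. D. erecta was nearer to D. sechellia for 8 of the 12 positive and 4 of the 12 negative genes, nearer to D. simulans for 4 and 4, and without a value for 4 negative ones. CG10050 had 103 and 92.8 at p40 and 54.5 and 56.5 in AA of D. sechellia, and 139 and 132 at p40 and 13358 and 13488 in AA of D. simulans. The 4 pupal libraries lay close together and the adult ones far apart, with a difference of -7.38 (SE 0.15, adjusted p = 7.22e-06).

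CG10418 was the reverse case, with 95.9 and 107 at p40 and 6642 and 5792 in AA of D. sechellia against 115 and 89.7 and then 158 and 147 in D. simulans (5.39, SE 0.22, adjusted p = 0.000113). In D. erecta CG10418 had a change of 6.09, near that of D. sechellia. CG13563 had 2843 and 2879, then 25.6 and 20.8, in D. sechellia and 15381 and 17239, then 5625 and 5355, in D. simulans (-5.27, SE 0.16, adjusted p = 4.34e-05). The peroxidase gene Pxd had 279 and 1114, then 575 and 744, in D. sechellia and fell from 322 and 346 to 3.83 and 3.71 in D. simulans (6.42, SE 0.81, adjusted p = 0.00352), and its change in D. erecta was -6.2.

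ppk5, of the pickpocket family of sodium channels, had the lowest difference of all members by the authors' means. It fell from 176 and 197 to 62.3 and 41.6 in D. sechellia and rose from 3.33 and 0 to 124 and 119.7 in D. simulans (-7.68, SE 0.95, adjusted p = 0.00341). CG4757 had 310.5 and 429 at p40 and 1298 and 1788 in AA of D. sechellia against 30.7 and 10.9 and then 3794 and 6589 in D. simulans (-5.90, SE 0.69, adjusted p = 0.00295). CG18735 fell from 6791 and 5313 to 27.8 and 28.2 in D. sechellia and from 30371 and 27874 to 2.55 and 0 in D. simulans (6.27, SE 0.74, adjusted p = 0.00297). The remaining positive genes were CG31055, CG6753, CG15905, CG13841 and link, and the remaining negative ones CG11099, CG31954, CG11893 and CG12539. Of the 24 genes, CG12539 and CG31954 were not called in every fit that left out a library, with adjusted p up to 0.0952 and 0.0592. Besides Or67d, 6 of the 24 rest on 1 to 3 reads in 1 group, so that their rank is uncertain. In D. simulans p40, CG11099 had 1 read (interval -11.59 to -3.81, over fragments) and CG31954 had 3 (-8.62 to -3.72). In D. simulans AA, CG15905 had 2 (3.29 to 11.08), CG6753 had 2 (4.16 to 11.94) and CG31055 had 3 (4.26 to 9.16), and CG12539 had 1 read in D. sechellia AA (-10.25 to -2.46). Little above this, CG18735 had 4 and 0 reads in D. simulans AA. At p40, CG11893 had 2 and 2 and ppk5 had 5 and 0 in D. simulans, and link had 2 and 2 in D. sechellia. Slightly more reads were found for GstE3 (6 and 4 in D. simulans p40), Pxd (6 and 4 in D. simulans AA) and Cpr72Ea. Cpr72Ea had 6 and 0 in D. sechellia AA and 4 and 4 in D. simulans AA. No interval was computed for these genes, and their ranks are uncertain as well.

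**Figure D5:**
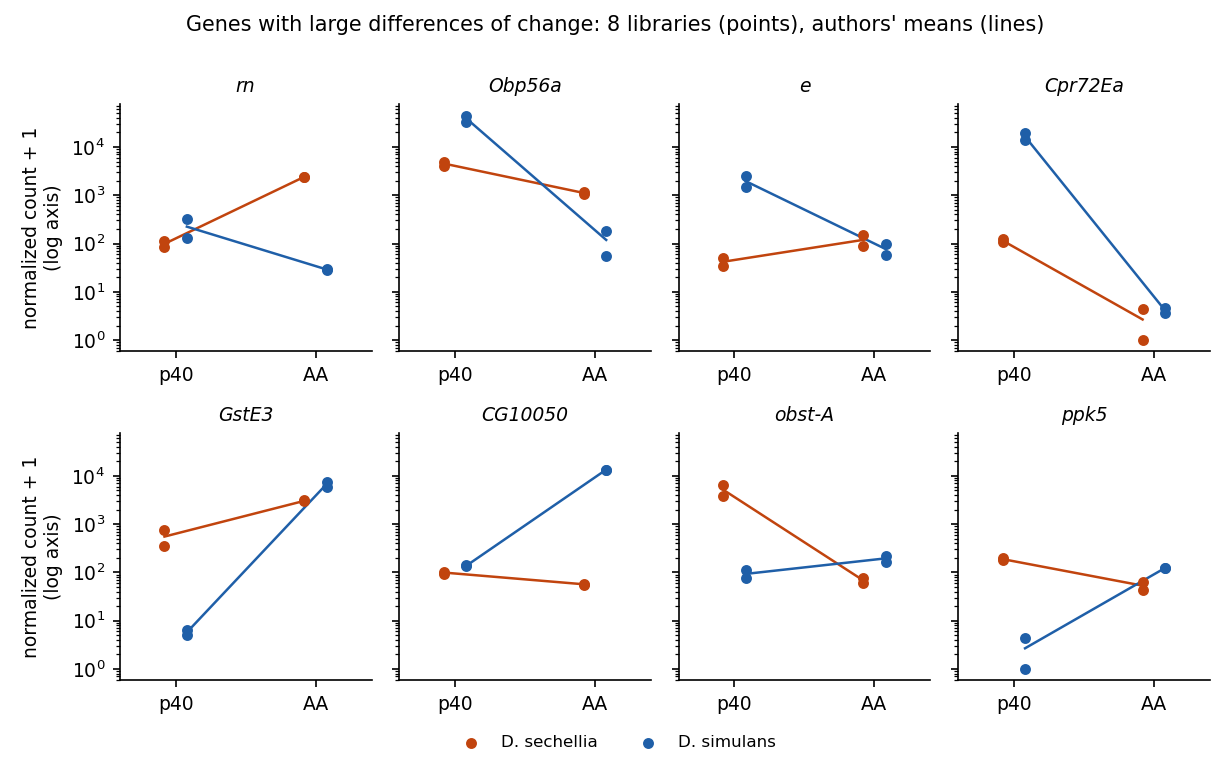
Levels of 8 genes with large differences of change at p40 and in AA, as normalized count plus 1 on a log axis, with points for the 2 libraries of each group and lines joining the authors' means. The lines of the 2 species run in opposite directions for rn, e, CG10050, obst-A and ppk5, and in the same direction with unequal slopes for Obp56a, Cpr72Ea and GstE3.

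Some gene groups could not be separated from the libraries that stood apart. The 14 eye and phototransduction genes had the highest list median (2.08), yet no member had a higher change and 4 (28.6%) had a lower one. The shares of all tested genes were 13.2% and 12.9%. Arr1, an arrestin of photoreceptors, had the highest difference of all members (8.99 by the authors' means), with 1.74 and 4.64 at p40 and 175 and 6889 in AA of D. sechellia and 9.34 and 59.8, then 126 and 29.7, in D. simulans, and it was not called (6.86, SE 2.48, adjusted p = 0.0861). Its level followed the photoreceptor sum of 339 and 22818 in the same 2 adult libraries, and the part of that library in the list median was not tested. Without library A of D. sechellia AA, which leaves library B, 3 members were called higher, and without library B 2 were called lower. The 4 lower members rdgB (-1.71, adjusted p = 0.00155), rdgC (-1.30), inaE (-1.08, adjusted p = 0.00988) and rdgA (-0.89 by the means) encode a phospholipid transfer protein, a phosphatase, a lipase and a kinase, and of these rdgB fell in D. sechellia and rose in D. simulans. The call of rdgC was lost in 5 of the 8 fits that left out a library (adjusted p between 0.0554 and 0.0875), those without library A of D. sechellia p40, either library of D. sechellia AA, library A of D. simulans p40 or library B of D. simulans AA.

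Of 12 fat body and yolk genes, 1 (8.33%) had a higher and 1 (8.33%) a lower change (median -0.43). The shares of all tested genes were 13.2% and 12.9%. The storage protein genes Fbp2, Fbp1, Lsp1beta and Lsp2 had differences of -6.64, -6.29, -5.77 and -3.06 between the means and were not called. Lsp2 had 3.34 and 81.7 in AA of D. sechellia and 60.0 and 852 in AA of D. simulans, so that its 2 libraries within each species differed more than 10-fold. The yolk protein gene Yp2 had 1845 and 3685 in AA of D. sechellia and 398 and 736 in AA of D. simulans (2.33, adjusted p = 0.0388). Yp2 is itself part of the fat body sum, so its library order is not independent of that sum, and the relation was not tested. Its call was lost without either library of D. sechellia p40, library B of D. sechellia AA, library B of D. simulans p40 or library A of D. simulans AA (adjusted p between 0.0783 and 0.108). The lipase gene bmm (-0.88, adjusted p = 0.0334) was lost without library A of D. sechellia p40 or any AA library (adjusted p between 0.0626 and 0.107).

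Of 8 haemocyte genes, 3 (37.5%) had a higher and 2 (25%) a lower change (median 0.81), against 13.2% and 12.9% of all tested genes. Peroxidasin, Pxn, fell less in D. sechellia, from 921 and 882 to 635 and 599 against 1238 and 1347 to 539.7 and 578 in D. simulans (0.71, SE 0.13, adjusted p = 0.00975). The collagen gene vkg fell from 1306 and 1302 to 979 and 872 in D. sechellia and had 1798 and 2099, then 2447 and 2494, in D. simulans (-0.79, SE 0.14, adjusted p = 0.0105). The other calls, NimC1, eater and Cg25C, held in 1 or 2 of the 8 fits that left out a library, with adjusted p up to 0.124. Summed over Hml, Pxn, NimC1 and eater, the haemocyte level was 3375 and 3442 in AA of D. sechellia, 1445 and 1450.1 in AA of D. simulans and between 1253 and 1705 at p40.

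Of 17 muscle genes, 2 (11.8%) had a lower and 1 (5.88%) a higher change (median -0.25), against 12.9% and 13.2% of all tested genes. Unc-89, the obscurin of the sarcomere, had 783 and 893, then 763 and 935, in D. sechellia and rose from 131 and 130.4 to 334 and 370.2 in D. simulans (-1.35, SE 0.19, adjusted p = 0.00479). Zasp52 (-2.07, adjusted p = 0.0349) and bt (1.39, adjusted p = 0.0335) held in 2 of the 8 fits each, with adjusted p up to 0.109 and 0.101. The summed level of 6 muscle markers was 23914 and 27465 at p40 and 1955 and 3251 in AA of D. sechellia, against 12962 and 8668 at p40 and 1259 and 1141 in AA of D. simulans. This sum was higher in D. sechellia at both stages without overlap, but its members went different ways. Mhc had means of 11000 in D. sechellia against 263 in D. simulans at p40 and 1430 against 45.6 in AA. In up and wupA D. sechellia was also higher at both stages. Mlc2 (4743 against 6364, then 406 against 705) and Prm (1284 against 1850.5, then 92.6 against 145) were higher in D. simulans. Mlc1 had 2050 against 1762, then 244 against 258. The part of muscle in the calls of this list was not tested.

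Of 17 heat shock and stress genes, 13 were tested. A lower change was found for 5 (38.5%) and a higher one for 1 (7.69%), against 12.9% and 13.2% of all tested genes. The median was -0.63, and the number of lower members depended on the library left out. It was lowest without library B of D. sechellia p40 and highest without library A of D. sechellia AA. No member named here kept its call without each library: Hsp67Bc (-1.78, adjusted p = 0.0198) reached 0.0601, Hsp67Ba (-1.11, 0.0273) 0.0798 and stv (-1.05, 0.0238) 0.0711 in the fits that left one out. Of 16 immune genes, 14 were tested, and 3 (21.4%) had a higher and 1 (7.14%) a lower change (median 0.05). The shares of all tested genes were 13.2% and 12.9%. Only 1 was higher without library B of D. sechellia p40, library B of D. sechellia AA, library A of D. simulans p40 or either library of D. simulans AA. None was lower without either library of D. sechellia AA, and 4 were without library B of D. simulans p40. The serpin gene nec, which restrains the Toll pathway, rose from 83.7 and 76.6 to 1903 and 1853 in D. sechellia and from 675 and 481 to 1259 and 1201 in D. simulans, below D. simulans at p40 and above it in AA (3.48, SE 0.23, adjusted p = 0.000543).

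None of the 8 tested glia genes was called (median -0.28 over 10), against 26.2% of all tested genes. The transporter gene Eaat2 had the largest difference of that list, -1.27 by the means, and was not resolved. Of 6 genes of dosage compensation and sex determination, 2 (33.3%) had a lower and none a higher change. The shares of all tested genes were 12.9% and 13.2%. The lower members were Sxl (-0.78, limma adjusted p = 0.0233) and msl-2 (-0.64, adjusted p = 0.0347), and both calls were lost in most of the fits that left out a library. The entry shared by Act42A and Act5C had 4142 and 4167 and 829 and 890.1 in D. sechellia but 84916 and 8604 and 17279.9 and 1600.4 in D. simulans, where the 2 libraries of each stage differed about 10-fold, and it was not called (0.14, SE 1.85, adjusted p = 0.963).

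The difference of change was also set against how much a gene changed in D. erecta, a species that did not enter it. The 80 genes that rose by 8 or more on the log2 scale in D. erecta had a median difference of -0.78, with a level ratio of D. sechellia to D. simulans of 1.14 at p40 and 0.32 in AA. Among the 51 of them that were tested, 12 (23.5%) had a lower and 8 (15.7%) a higher change, against 12.9% and 13.2% of all tested genes. In the bin between 2 and 4 the share with a lower change was 20.8% of 448, and between -1 and 0 it was 10.5% of 2181. The 328 genes that fell by 4 or more had a median of -0.08.

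Genes on both sides of the minimum level of 50 were compared without a test. The 127 genes just inside it, with a level up to 60, had a median difference of 0.17 (quartiles -0.87 and 1.11). The 129 genes just outside it, between 40 and 50, had one of -0.16 (quartiles -0.95 and 0.71). Whether the counting used the strand is not given in the sources used here, so for overlapping genes on opposite strands a level can hold reads of both. Where the gene models of the species differ in a part that is used at 1 stage only, the effect does not cancel in the difference of change.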

How the data were processed

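RNA of antennae was sequenced from stranded libraries as paired reads. Per the submitters' processing notes and the methods, the authors used CASAVA 1.8, aligned reads to the FlyBase transcriptome of each species with BWA 0.7.8, assigned them to D. melanogaster gene names and normalized them with DESeq2, each stage separately. The deposited values are a signal: the mean normalized count of 2 libraries per species and stage, not divided by length. Of the 24 mean columns, 4 of D. melanogaster were not used here. No column held a fold change or p-value of the authors.

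Because each mean is a sum of 2 whole read counts divided by their size factors, both counts could be worked out from the digits of the mean, for 98.45% to 99.14% of the AA values. On simulated means 97.4% of 13227 values written with 10 digits were recovered. The recovered libraries carry no replicate number, and A and B name libraries within 1 group only. Gene names with identical values in all groups were joined.

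Differences of change were fitted with limma 3.58.1 in R 4.3.3 to log2(normalized count + 1) of the 8 libraries with a mean-variance trend, after the median difference had been set to 0, and p-values were Benjamini-Hochberg adjusted over 7338 genes. With a simulated log2 difference of 1, 52 of 100 genes were called, with one of 2, 85 of 100, and of 7138 unchanged genes 8. In this simulation each gene had 1 dispersion, shrunk toward the median over genes, and few genes changed. The real groups hold genes that differ by more than 3 on the log2 scale between libraries. These counts therefore do not give the error rate of the real calls. The methods describe the 2 libraries of a group as biological replicates, each from a pool. Differences said to be between the means used the authors' means without pseudocount. Counting intervals are exact Poisson intervals over the fewest fragments that the reads can come from, 2 reads to a fragment.

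Genes were named by a rule: the 12 largest differences in each direction among called genes, up to 3 called genes per list and direction, or the largest where none was called, the 5 most abundant unresolved genes, the highest and lowest difference, and Or22a, Or85b, Or42b, Or92a, Or47b, Orco, Ir31a, elav and Act5C. Other members of the 26 lists are given as further values. The comparison and the lists were chosen with earlier results of these data known. Alternatives were level minimums of 10, 200 or none, pseudocounts of 0.5 or 10, other centring, a fit over 5 species, no variance trend, voom weights, genes with even D. simulans counts only, a minimum difference of 1, and each library left out. Other steps used Python 3.11.15, numpy 2.4.6, pandas 2.3.3 and matplotlib 3.10.9.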

Additional observations from a re-analysis of the deposited data

Results flagged for a closer look

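The changes of the 2 species differed by the test of the difference itself for 970 genes with a higher and 949 with a lower change in D. sechellia. Among the named genes, the change passed the test in opposite directions in the 2 species for 10. Higher in D. sechellia were rn, with a difference of 7.49, e with 6.2, NetB with 3.50 and Ir93a with 2.94. Lower were ppk5 (-7.68), CG10050 (-7.38), obst-A (-7.22), rdgB (-1.71), CG9313 (-1.16) and bab2 (-0.95). All 10 kept the call of the difference without each library in turn. No group had the 4 or more libraries needed to look for single libraries far from the others.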

How the results depend on the processing

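No paired analysis was possible because the recovered libraries carry no replicate number. The counts of 970 higher and 949 lower genes ranged from 531 to 944 and from 513 to 1009 when 1 library was left out, with the highest counts without library B of D. simulans p40. They were 461 and 461 among the 3570 genes with even D. simulans counts, which are fewer genes, and 442 and 477 with a difference of at least 1, and 854 and 1056 without centring, and they stayed within 1.5 times under the other settings. Among the genes with even counts, an alternative chosen for the changes after seeing the data, 1325 rose and 1324 fell in D. sechellia and 1275 rose and 1294 fell in D. simulans. Without 1 library, between 2312 and 2763 rose and between 2401 and 2783 fell in D. sechellia, and between 2356 and 2600 rose and between 2403 and 2610 fell in D. simulans. Of 123 named genes that were called, 79 were called without each library in turn and 44 were not. The difference of Act42A (shared with Act5C) ranged from -1.587 (without library B of D. simulans AA) to 1.852, with -1.521 without library A of D. simulans p40. That of Or47b ranged from -0.059 (without library A of D. simulans p40) to 0.574, and that of Or92a from -0.205 (without library B of D. sechellia p40) to 1.959. The reversed values were not called, and the cause was not tested. With 2 libraries per group, the depth at p40 limits receptors with few reads there. Depth is known only roughly, from sums that repeat shared reads and in AA leave out the most abundant genes.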

Other observations

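Some genes had very different levels in the 2 libraries of 1 species. In D. simulans, 38 of the 7338 tested genes at p40 and 37 in AA differed by more than 3 on the log2 scale, and 7 did so at both stages, Act42A (shared with Act5C), CG14693, CG6329, CG8517, Nipped-A, fok and rec. Of these, 6, all but CG8517, were higher in the library of the same letter at both stages. The gene fok had 2.67 and 1173 normalized counts at p40 and 6.38 and 559 in AA of D. simulans, against 1279 and 1476, then 570 and 502, in D. sechellia. The gene rec had 945 and 47.6, then 1354 and 52.9, in D. simulans. In D. sechellia, 19 genes differed by as much at p40 and 30 in AA, and 3 did so at both stages, CG18273, CG46121 and Ntf-2, each higher in libraries of different letters. CG18273 had 658 and 13.9 at p40 and 16.7 and 855 in AA of D. sechellia.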
